A study of Homo sapiens with 9 samples.

Results

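The BCL2 family was examined in cells that carry the tumour suppressor WWOX, a mutant of it or an empty vector. Members were the pro-survival genes BCL2, BCL2A1, BCL2L1 (BCL-XL), BCL2L2 (BCL-W) and MCL1, the BH3-only genes BCL2L11 (BIM), BBC3 (PUMA) and PMAIP1 (NOXA), and the effectors BAX and BAK1. Every probe set annotated to exactly 1 of these genes was taken, which gave 29 of the 54613 probe sets tested. They cover 9 of the 10 genes, of 19775 genes with such a probe set on the array. No probe set qualified for BBC3, since that which carries its name also carries 2 microRNA genes.

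MDA-MB435S is an established human line deposited as metastatic melanoma, and all cells compared here derive from it. EV cells carried an empty vector, WWOX cells wild-type WWOX, and WFPA cells WWOX with point mutations that disrupt its first WW domain, the part that binds partner proteins. All 3 were stable clones under G418 selection, with 3 Affymetrix U133 Plus 2.0 arrays each, and no source used here states that arrays of 1 group came from separate cultures. A p-value therefore measures the spread between these arrays, which may be technical, and a difference between groups cannot be told apart from a difference between clones. The vector field of the labels conflicts with the names of the EV and the WWOX arrays, and the names were followed. The names of the EV arrays themselves carry both EV and wox+, and EV was taken as their group. WWOX probe set 223868_s_at read 8.74 to 9.26 in EV, 10.12 to 10.35 in WFPA and 10.34 to 10.83 in WWOX arrays, and 221147_x_at 4.21 to 4.83, 7.56 to 7.68 and 7.87 to 8.46. These 2 of the 5 WWOX probe sets run the way of the groups as taken here. Of the others, 219077_s_at had means of 3.91, 5.50 and 5.13 in EV, WFPA and WWOX and did not pass against EV, 210695_s_at did not differ past the threshold (5.98, 5.98 and 6.11), and 223747_x_at was lower in WFPA than in EV (8.38 and 9.11, adjusted p = 0.0433) and read 8.87 in WWOX. The names were followed as labels, and these levels do not settle the conflict.

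BCL2 family proteins decide whether the outer membrane of mitochondria stays closed. BAX and BAK1 open it when active and so release cytochrome c, the pro-survival proteins hold them and the BH3-only proteins in check, and each BH3-only protein binds some or all of the pro-survival ones. NOXA binds MCL1 and BCL2A1 above all, BIM binds all of them, and melanoma cells are known for their reliance on MCL1, BCL-XL and BCL2A1.

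Values are log2 expression as deposited, on 1 scale for all arrays, so a change of 1 is 2-fold. Each probe set has its own affinity, so levels of a member were compared between arrays and not with those of another probe set. A probe set "passed" when limma gave it an adjusted p below 0.05 and was "called" when its change also reached 2-fold, with adjustment over all 54613 probe sets. The first question was which members differ in WWOX cells from the mean of both controls, which does not require a difference from each. Below, "against both controls" means against this mean. Against the mean of EV and WFPA, 3 of 29 member probe sets were called, both of PMAIP1 lower and 1 of BCL2 higher, where 3.23% of all probe sets were called. Without the fold limit 12 member probe sets (41.4%) passed, 9 lower and 3 higher, beside 9.46% of all probe sets lower and 6.88% higher. Of these 12, 5 are of MCL1, 2 of PMAIP1 and 2 of BCL2L1, so they are repeated readings of fewer genes. The median change of the members was -0.14, and that of all probe sets 0.03. In 15 member probe sets (51.7%) the WWOX arrays all lay above or all below the 6 others, as in 17.1% of all probe sets. The members were chosen with earlier results of these data known, so these shares, and those below, do not test the family. The study's limit of 4-fold, with the adjustment used here, left 1 member probe set, PMAIP1 204285_s_at, where 0.754% of all probe sets were called. The study names Bonferroni adjustment beside that limit, and under it this probe set was lost. PMAIP1 204286_s_at passed Bonferroni but not 4-fold, so no member met both.

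**Figure D1:**
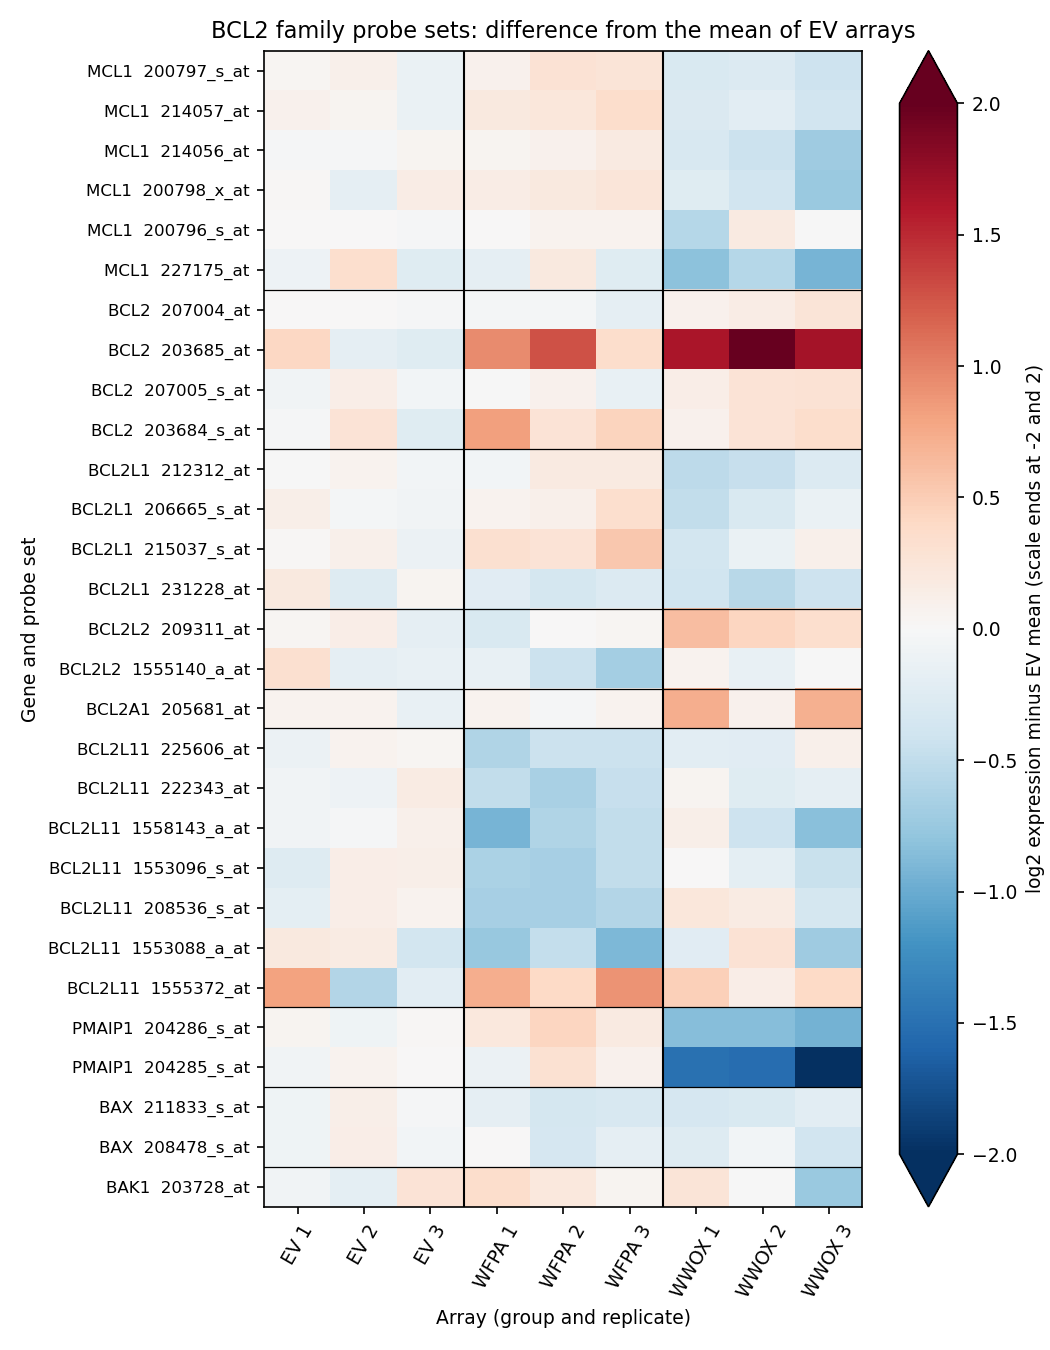
Each cell is 1 array's log2 expression of 1 member probe set minus the mean of the 3 EV arrays; columns are arrays by group and replicate, and probe sets are ordered within a gene by mean level. The PMAIP1 and most MCL1 and BCL2L1 probe sets are blue in the 3 WWOX arrays, BCL2 203685_at is red there and paler red in WFPA, and 6 of the 7 BCL2L11 probe sets are blue in WFPA; 2 cells lie past the ends of the scale (WWOX 2 of BCL2 203685_at and WWOX 3 of PMAIP1 204285_s_at).

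PMAIP1 fell in both of its probe sets in WWOX cells. It encodes NOXA, a small BH3-only protein that binds MCL1 and hastens its breakdown, and it is switched on by p53 and by the stress factor ATF4. Probe set 204286_s_at read 11.06, 10.91 and 11.01 in EV, 11.20, 11.43 and 11.17 in WFPA, and 10.15, 10.14 and 10.04 in WWOX. The 3 WWOX arrays lay close together and below all 6 others. Its change was -1.02 ± 0.08 (SE, n = 3 arrays a group; limma adjusted p = 6.51e-05) against the mean of both controls, -0.88 against EV (adjusted p = 0.000496) and -1.15 against WFPA (adjusted p = 8.24e-05). The change against EV is under 2-fold, and that against both controls is just under it without WFPA replicate 2 or WWOX replicate 3 (-0.98 for each), with the adjusted p at most 0.000562 without any 1 array.

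The second PMAIP1 probe set, 204285_s_at, read 10.11, 10.26 and 10.19 in EV, 10.08, 10.50 and 10.27 in WFPA, and 8.69, 8.66 and 7.24 in WWOX. The groups of controls overlapped and the WWOX arrays lay below them, with replicate 3 well below the others. Its change of -2.04 ± 0.29 (SE; adjusted p = 0.00169) was the largest of the 29 in this comparison, and without WWOX replicate 3 it was -1.56 (adjusted p = 0.000101). WFPA and EV did not differ past the threshold in either PMAIP1 probe set, with changes of 0.27 (95% interval 0.05 to 0.49, adjusted p = 0.159) and 0.09 (-0.67 to 0.86, adjusted p = 0.925). These are levels per amount of RNA in a clone, so less PMAIP1 RNA per cell and fewer cells that express it cannot be told apart.

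The promoter of PMAIP1 is shown because the gene moved in all WWOX arrays. Those of BCL2L11 and BCL2A1 are shown as further examples, and the matches of the other windows are given in words. RefSeq windows of 250 bases before to 50 after a start site (GRCh38.p14) were at hand for 8 of the 10 members, and for BCL2L1 there were 2 windows. MCL1 and BCL2L2 were not matched. Only bases before the start are printed, 5′ to 3′ on the gene's strand, with matches in capitals to GGGCGG (a GC box), TGACGT (the core of the site bound by ATF and CREB proteins), GTAAACA (a FOXO site) or CATGTG (an E-box of the MITF type), each searched on both strands.
PMAIP1, chr18:59899836-59899965, plus strand, -160 to -31: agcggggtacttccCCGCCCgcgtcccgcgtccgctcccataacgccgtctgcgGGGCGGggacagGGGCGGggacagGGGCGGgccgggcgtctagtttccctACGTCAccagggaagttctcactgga
BCL2L11, chr2:111120674-111120853, plus strand, -240 to -61: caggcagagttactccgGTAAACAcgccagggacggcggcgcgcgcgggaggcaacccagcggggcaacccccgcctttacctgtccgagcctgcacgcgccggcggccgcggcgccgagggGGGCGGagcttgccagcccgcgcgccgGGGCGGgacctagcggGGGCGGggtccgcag
BCL2A1, chr15:79971197-79971276, minus strand, -80 to -1: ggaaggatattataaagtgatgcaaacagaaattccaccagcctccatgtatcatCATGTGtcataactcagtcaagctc

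The PMAIP1 stretch holds 4 GC boxes, 1 of them on the other strand, and 1 ATF and CREB core on the other strand at -56. The BCL2L11 stretch holds 1 FOXO match at -223 and 3 GC boxes, and that of BCL2A1 holds 1 CATGTG at -25. Of all 35116 windows, 45.0% hold GGGCGG, 7.98% TGACGT, 3.42% GTAAACA and 11.1% CATGTG. The symmetrical E-box CACGTG is in 7.26% of all windows and occurs 4 times in that of BAX, whose expression did not pass in any comparison. The window of BCL2 and the first of BCL2L1 held no match to any of these strings. GGGCGG occurred 2 times in BAX, 2 times in BAK1 and 1 time in the second window of BCL2L1, and BBC3 held 1 CACGTG. A match is a string of letters, and binding was not measured.

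BCL2, the founding pro-survival gene, rose in WWOX cells in 1 of its 4 probe sets. Probe set 203685_at read 6.26, 5.66 and 5.60 in EV, 6.79, 7.11 and 6.20 in WFPA, and 7.47, 8.13 and 7.51 in WWOX. The WWOX arrays were above all others, and the WFPA arrays overlapped EV, since WFPA replicate 3 lay below EV replicate 1. The change was 1.43 ± 0.24 (SE; adjusted p = 0.00388) against the mean of both controls and 1.86 against EV (adjusted p = 0.00273), and both were called without any 1 array. Against WFPA it was 1.00 (adjusted p = 0.038), and that call was lost without EV replicate 2 or 3, WFPA replicate 1 or 3, or WWOX replicate 2 or 3 (0.75 to 1.10, adjusted p 0.0508 to 0.12). WFPA minus EV was 0.86 (95% interval 0.23 to 1.48, adjusted p = 0.117).

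The other 3 BCL2 probe sets did not pass. In 207004_at, the brightest by its mean, the arrays read 6.82 to 6.86 in EV, 6.66 to 6.80 in WFPA and 6.94 to 7.11 in WWOX, a change of 0.21 (95% interval 0.04 to 0.38, adjusted p = 0.0876). Probe set 207005_s_at gave 0.24 (0.04 to 0.44, adjusted p = 0.0969). In both, as in 203685_at, the WWOX arrays lay above the 6 others. Probe set 203684_s_at, at 4.06 to 5.13 in all arrays, overlapped throughout and gave -0.02 (-0.36 to 0.31). A statement on BCL2 as a gene thus depends on the probe set, and their mean gave 0.47.

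MCL1, the short-lived pro-survival protein to which NOXA binds, fell in 5 of its 6 probe sets in WWOX cells. Probe set 200797_s_at read 11.37, 11.42 and 11.20 in EV, 11.42, 11.62 and 11.58 in WFPA, and 11.03, 11.06 and 10.92 in WWOX. All 3 WWOX arrays were below the controls, by -0.44 ± 0.09 (SE; adjusted p = 0.00841) in the mean. The other 4 that fell did so by 0.42 (214057_at), 0.54 (214056_at), 0.55 (200798_x_at, which by its design can also bind related transcripts) and 0.73 (227175_at), with adjusted p from 0.0049 to 0.0144. In these 4 too the WWOX arrays lay below the 6 others, and all 5 passed without any 1 array. None reached 2-fold. Probe set 200796_s_at gave -0.16 (95% interval -0.48 to 0.17), with WWOX replicate 1 at 6.08 and the 8 other arrays at 6.62 to 6.82.

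Against WFPA alone the same 5 MCL1 probe sets passed, by -0.54 to -0.70, of which 200798_x_at was lost without WFPA replicate 3 (adjusted p = 0.0515) and 227175_at without WFPA replicate 1 or 2 or WWOX replicate 1 or 3 (up to 0.0967). Against EV alone 214056_at (-0.49, adjusted p = 0.02) and 227175_at (-0.77, adjusted p = 0.0225) passed. The first of these was lost without any 1 EV array, and the second without EV replicate 1 or 2 or WWOX replicate 1 or 3, with adjusted p up to 0.0727 and 0.065. WFPA minus EV gave no pass, with 0.21 in 200797_s_at (95% interval -0.01 to 0.43) and -0.07 to 0.25 in the others.

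**Figure D2:**
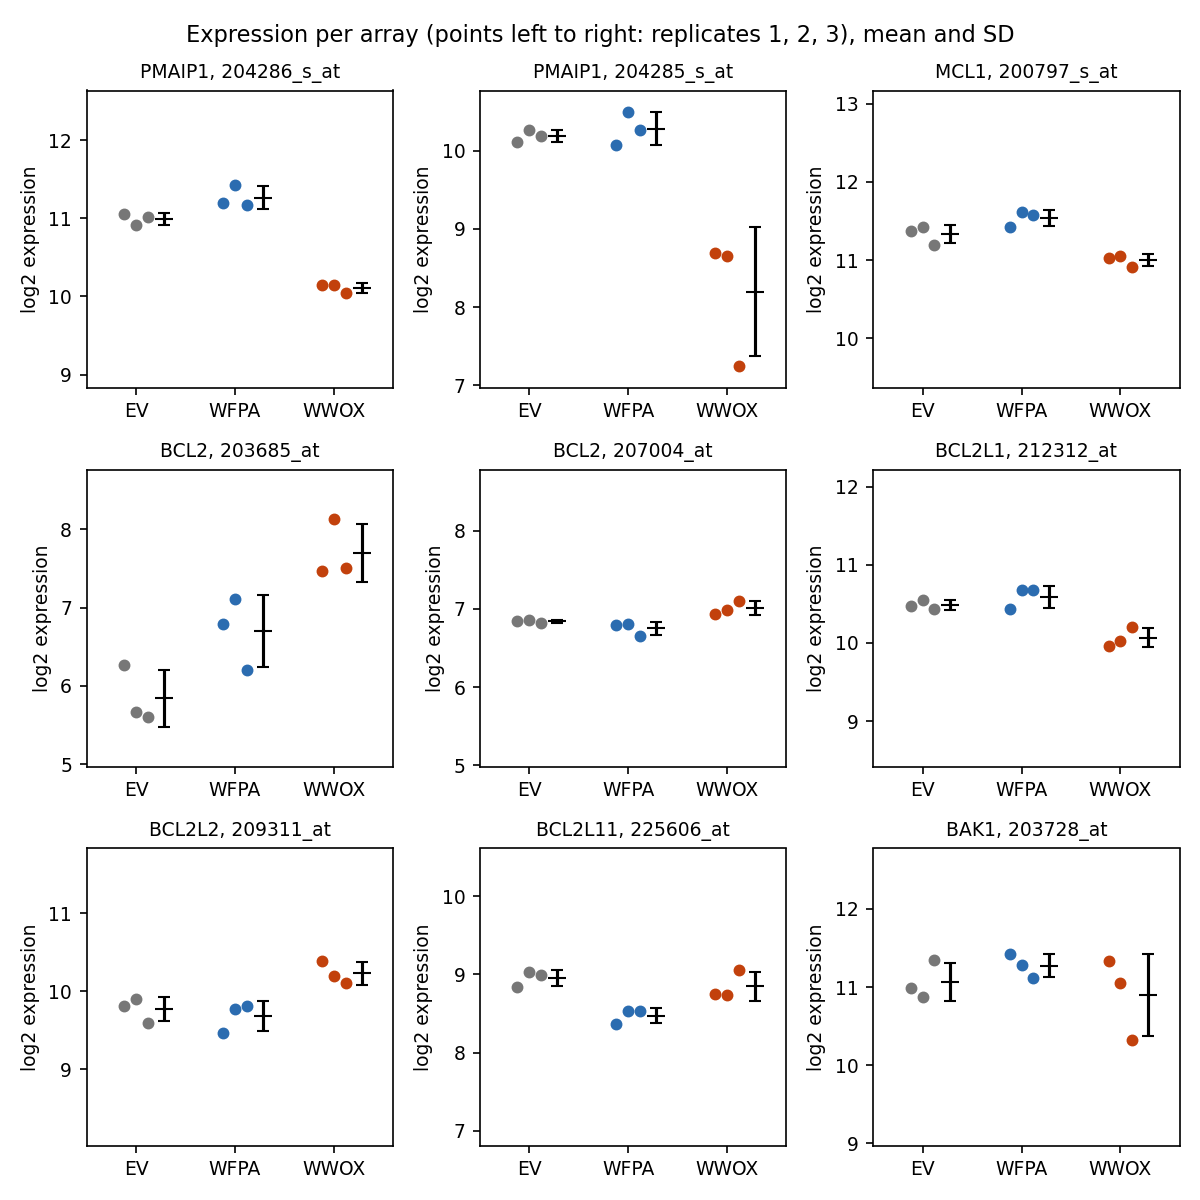
Points are log2 expression in single arrays for 9 member probe sets, and the bars beside them the mean and SD of 3 arrays; every panel spans the same number of log2 units. WWOX points lie apart from both controls in PMAIP1 (10.04 to 10.15 in 204286_s_at), MCL1, BCL2 203685_at, BCL2L1 and BCL2L2, WFPA points lie lowest in BCL2L11, and the groups overlap in BAK1.

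BCL2L1, which encodes the pro-survival BCL-XL as well as a shorter pro-death form by splicing, was lower in WWOX cells in 2 of 4 probe sets. Probe set 212312_at read 10.47, 10.55 and 10.43 in EV, 10.43, 10.67 and 10.67 in WFPA, and 9.96, 10.03 and 10.20 in WWOX. The WWOX arrays were below all others, with a change of -0.47 ± 0.09 (SE; adjusted p = 0.00774) that passed without any 1 array, -0.42 against EV and -0.52 against WFPA. The pass against EV (adjusted p = 0.0321) was lost without any 1 EV array, WFPA replicate 2, or WWOX replicate 1 or 2, with adjusted p up to 0.102. Probe set 206665_s_at gave -0.39 (adjusted p = 0.0365), a pass that held in only 1 of the 9 fits without an array, that without WWOX replicate 3 (adjusted p 0.0221 to 0.0988 over the 9). The other probe sets, 215037_s_at (-0.32, 95% interval -0.58 to -0.06) and 231228_at (-0.31, -0.55 to -0.07), did not pass here. Against WFPA 206665_s_at (-0.48, adjusted p = 0.0296) and 215037_s_at (-0.51, adjusted p = 0.031) passed and against EV 231228_at did (-0.45, adjusted p = 0.0444), and these held in 4, 3 and 1 of the 9 fits without an array, with adjusted p up to 0.107, 0.112 and 0.142. The arrays do not tell the long splice form from the short.

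BCL2L2, the pro-survival BCL-W, rose in 1 of 2 probe sets. Probe set 209311_at read 9.82, 9.90 and 9.60 in EV, 9.47, 9.77 and 9.81 in WFPA, and 10.39, 10.20 and 10.10 in WWOX, without overlap between WWOX and the controls. The change was 0.50 ± 0.11 (SE; adjusted p = 0.0169), with 0.42 and an adjusted p of 0.0507 without WWOX replicate 1. Against WFPA it was 0.54 (adjusted p = 0.022), lost without WFPA replicate 1 or WWOX replicate 1 or 2 (up to 0.0752). Against EV it was 0.46 and did not pass (adjusted p = 0.0547). Probe set 1555140_a_at gave 0.18 (95% interval -0.15 to 0.52), and -0.03 against EV.

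BCL2A1, a pro-survival gene that MITF is known to drive in melanoma, has 1 probe set, and it lay under the lower quartile of every array (4.23 to 4.34). It read 3.31, 3.31 and 3.08 in EV, 3.31, 3.22 and 3.31 in WFPA, and 3.96, 3.33 and 3.95 in WWOX, with 4 arrays at the same value. WWOX replicate 2 lay next to the controls and the other WWOX arrays above. Its change of 0.49 ± 0.14 (SE; adjusted p = 0.0495) was held in 1 of the 9 fits that left out an array, that without WWOX replicate 2 (0.70, adjusted p = 0.00301), and reached adjusted p = 0.162 among the others. At such a level the size of a change is uncertain.

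BCL2L11 was the member with probe sets that passed between WFPA and EV. It encodes BIM, which binds every pro-survival member and whose transcription FOXO factors drive. This comparison sets the mutant clone against the empty-vector clone, and an effect of the mutant cannot be told apart from a difference between clones. Of the 29 member probe sets 4 passed without a fold limit (13.8%), all of BCL2L11 and all lower in WFPA, where 6.64% of all probe sets passed. None was called at 2-fold, where 1.73% of all were called. At an unadjusted p under 0.05, 14 of the 29 members differed, as did 19.1% of all probe sets, and a plain 1-way model called none either.

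Probe set 225606_at read 8.85, 9.03 and 8.99 in EV, 8.36, 8.53 and 8.53 in WFPA, and 8.75, 8.73 and 9.06 in WWOX. The WFPA arrays were the lowest, and EV and WWOX overlapped. WFPA minus EV was -0.48 ± 0.11 (SE; adjusted p = 0.0393), and WWOX minus EV was -0.11 (95% interval -0.37 to 0.15). Probe set 222343_at read 7.54, 7.52 and 7.78 in EV, 7.12, 6.96 and 7.14 in WFPA, and 7.67, 7.37 and 7.43 in WWOX, with the same order. Its WFPA minus EV was -0.54 ± 0.12 (SE; adjusted p = 0.0262).

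The other passes were 1553096_s_at (-0.60, adjusted p = 0.0426) and 208536_s_at (-0.64, adjusted p = 0.046). In all 4 the WFPA arrays lay below the 6 others. Each pass was lost in 6 or 7 of the 9 fits that left out an array, among them every fit without 1 WFPA array, with adjusted p up to 0.106 to 0.146 and changes of -0.42 to -0.74. The brightest of the remaining probe sets, 1558143_a_at, gave -0.67 (95% interval -1.16 to -0.18, adjusted p = 0.116), 1553088_a_at -0.71 (-1.28 to -0.14, adjusted p = 0.152) and 1555372_at 0.68 (-0.02 to 1.38, adjusted p = 0.281). The last has the opposite sign and EV values of 4.46, 3.07 and 3.45, near or under the lower quartile. Over all members the WFPA arrays lay entirely below EV in 8 (27.6%), as in 15.9% of all probe sets, and 6 of these are of BCL2L11. They lay entirely above EV in 5 (17.2%), of PMAIP1, MCL1 and BCL2L1, and the share of all probe sets that do so was not computed.

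Against the mean of both controls no BCL2L11 probe set passed in WWOX cells, with changes from -0.04 to 0.33. Against WFPA 208536_s_at (0.65, adjusted p = 0.0235) and 222343_at (0.41, adjusted p = 0.0395) were higher, though these comparisons share the WFPA arrays with that against EV. The first pass was lost without any 1 WFPA array or WWOX replicate 1 or 2. The second was held only without EV replicate 3 or WWOX replicate 2, with adjusted p up to 0.134.

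**Figure D3:**
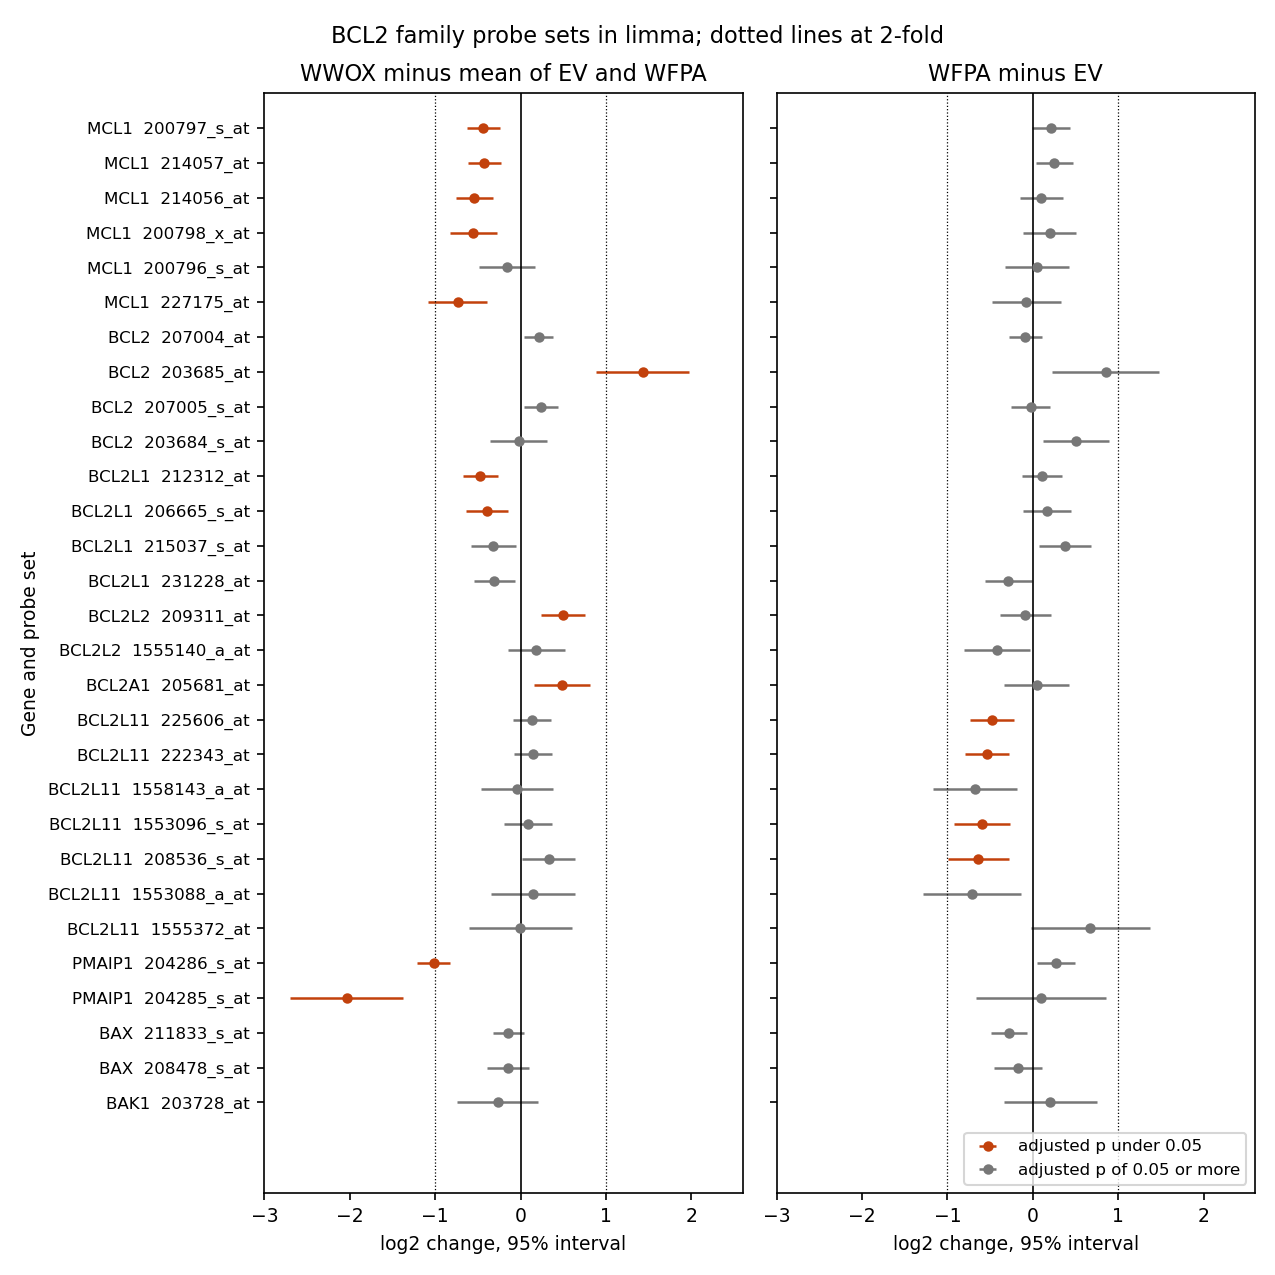
Points are limma's log2 changes of the 29 member probe sets, with 95% intervals, for WWOX minus the mean of EV and WFPA (left) and WFPA minus EV (right); red marks an adjusted p under 0.05. On the left 12 are red, from -2.04 (PMAIP1) to 1.43 (BCL2), and on the right only 4 of BCL2L11 are, at -0.48 to -0.64.

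The effectors BAX and BAK1, which form the pores themselves, did not pass in any comparison. BAX probe set 211833_s_at read 10.37, 10.57 and 10.44 in EV, 10.29, 10.11 and 10.14 in WFPA, and 10.13, 10.15 and 10.25 in WWOX. Both clones with a WWOX construct lay below EV without overlap, by -0.28 each (95% intervals -0.49 to -0.07 for WFPA, adjusted p = 0.123, and -0.50 to -0.07 for WWOX, adjusted p = 0.0862). BAX 208478_s_at overlapped throughout, with -0.15 (-0.40 to 0.09) for WWOX against both controls. BAK1 203728_at read 10.99, 10.87 and 11.34 in EV, 11.42, 11.28 and 11.12 in WFPA, and 11.33, 11.06 and 10.32 in WWOX. WWOX replicate 3 alone lay below the rest, and the change was -0.27 (-0.74 to 0.20). The intervals leave room for changes of up to -0.74 in BAK1 and -0.40 in BAX in this comparison.

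The comparisons of WWOX with each control separately share the WWOX arrays. Against EV 2 members were called (7 passed, 24.1%), where 3.29% of all probe sets were called and 11.8% passed. Against WFPA, which compares the wild-type clone with the mutant clone, 3 were called (14 passed, 48.3%), where 3.98% were called and 16.3% passed. PMAIP1 204285_s_at and BCL2 203685_at were called in both, and PMAIP1 204286_s_at against WFPA.

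Of the other genes of the pathway, each taken by its brightest probe set, few were called. Among all genes 1.94% were called higher and 2.06% lower in WWOX cells against both controls, and 1.54% higher and 0.693% lower in WFPA against EV. None of 13 other BCL2 family genes, 13 genes of the apoptosome and caspases, 6 inhibitors of apoptosis, 11 genes of the death receptor pathway and 6 genes of MCL1 and BIM turnover was called in either comparison. Without the fold limit, where 9.49% of all genes passed higher and 10.9% lower in WWOX cells against both controls, the genes that passed were named after their values were seen. In the first list 3 of 13 passed higher, the BH3-only genes BMF (0.94, adjusted p = 0.00192), BAD (0.46, adjusted p = 0.0307) and HRK (0.40, adjusted p = 0.0307), while the BH3-only genes BIK (-0.22) and BID (-0.02) did not pass. BMF read 4.88 to 5.29 in the 6 control arrays and 5.87 to 6.32 in WWOX. APAF1, the scaffold of the apoptosome, passed higher (0.40, adjusted p = 0.00958), and CASP9, the caspase it activates, lower (-0.57, adjusted p = 0.00309), as did DFFA (-0.58) and CASP10 (-0.50). In the death receptor list FAS (-0.48, adjusted p = 0.0218), TNFRSF1A (-0.31) and CFLAR (-0.37) passed lower. In that of inhibitors BIRC5 passed higher (0.24), and in that of MCL1 and BIM turnover USP9X did (0.28, adjusted p = 0.0221). Against EV alone BAD, CASP10, TNFRSF1A, CFLAR and BIRC5 did not pass (adjusted p = 0.156, 0.288, 0.28, 0.108 and 0.755). BIRC5 was lower in WFPA than in EV (-0.38, adjusted p = 0.0176), and WWOX minus EV was 0.05. The list medians ran from -0.15 to 0.04, and that of all genes was 0.04.

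Among 12 transcription factors known to act on these genes, 1 was called higher and 2 lower in WWOX cells against both controls. MITF, the melanocyte factor that drives BCL2 and BCL2A1, read 11.83 to 11.90 in EV, 11.33 to 11.45 in WFPA and 13.26 to 13.60 in WWOX, a change of 1.80 (adjusted p = 2.43e-06). MYC read 9.55 to 10.13 in the controls and 8.67 to 8.81 in WWOX (-1.08, adjusted p = 0.000458). DDIT3 (CHOP), a stress factor downstream of ATF4, read 8.59, 8.77 and 8.76 in EV, 10.51, 10.24 and 10.21 in WFPA, and 8.36, 8.20 and 8.73 in WWOX. It was called higher in WFPA against EV (1.61, adjusted p = 0.000363), and its change of -1.08 (adjusted p = 0.000575) in WWOX is against a mean that holds these high WFPA arrays, with WWOX and EV overlapping.

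ATF4 itself passed with the same order of groups, 13.49 to 13.58 in EV, 14.31 to 14.34 in WFPA and 13.40 to 13.52 in WWOX (WFPA minus EV 0.81, adjusted p = 0.000476). FOXO1 also passed higher in WFPA against EV (0.99, adjusted p = 0.0162). E2F1 (-0.62, adjusted p = 0.0137) and MITF (-0.47, adjusted p = 0.0266) passed lower there. ATF4, FOXO1 and E2F1 were named after their values were seen. FOXO3 did not pass (-0.13, adjusted p = 0.659). The part of these factors in the values of PMAIP1 and BCL2L11 was not tested.

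Of 16 other p53 target genes, 1 was called higher and 2 lower in WWOX cells against both controls. ZMAT3 read 10.35 to 10.66 in the controls and 11.63 to 11.79 in WWOX (1.18, adjusted p = 1.78e-05). GADD45A, a stress gene of growth arrest, read 12.77 to 12.97 in the controls and 11.52 to 11.93 in WWOX (-1.10, adjusted p = 0.000117). SESN2 read 8.24, 8.36 and 8.95 in EV, 10.20, 10.07 and 10.35 in WFPA, and 8.02, 7.75 and 7.44 in WWOX, called in both comparisons (-1.63, adjusted p = 0.000333, and WFPA minus EV 1.69, adjusted p = 0.00155). The first change is against a mean that holds these high WFPA arrays. Against EV alone SESN2 passed but was not called (-0.78, limma adjusted p = 0.0378). CDKN1A and MDM2, the best-known targets, gave -0.02 (adjusted p = 0.896) and -0.07 (adjusted p = 0.565). The list's median was -0.115, and that of the transcription factors -0.314.

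**Figure D4:**
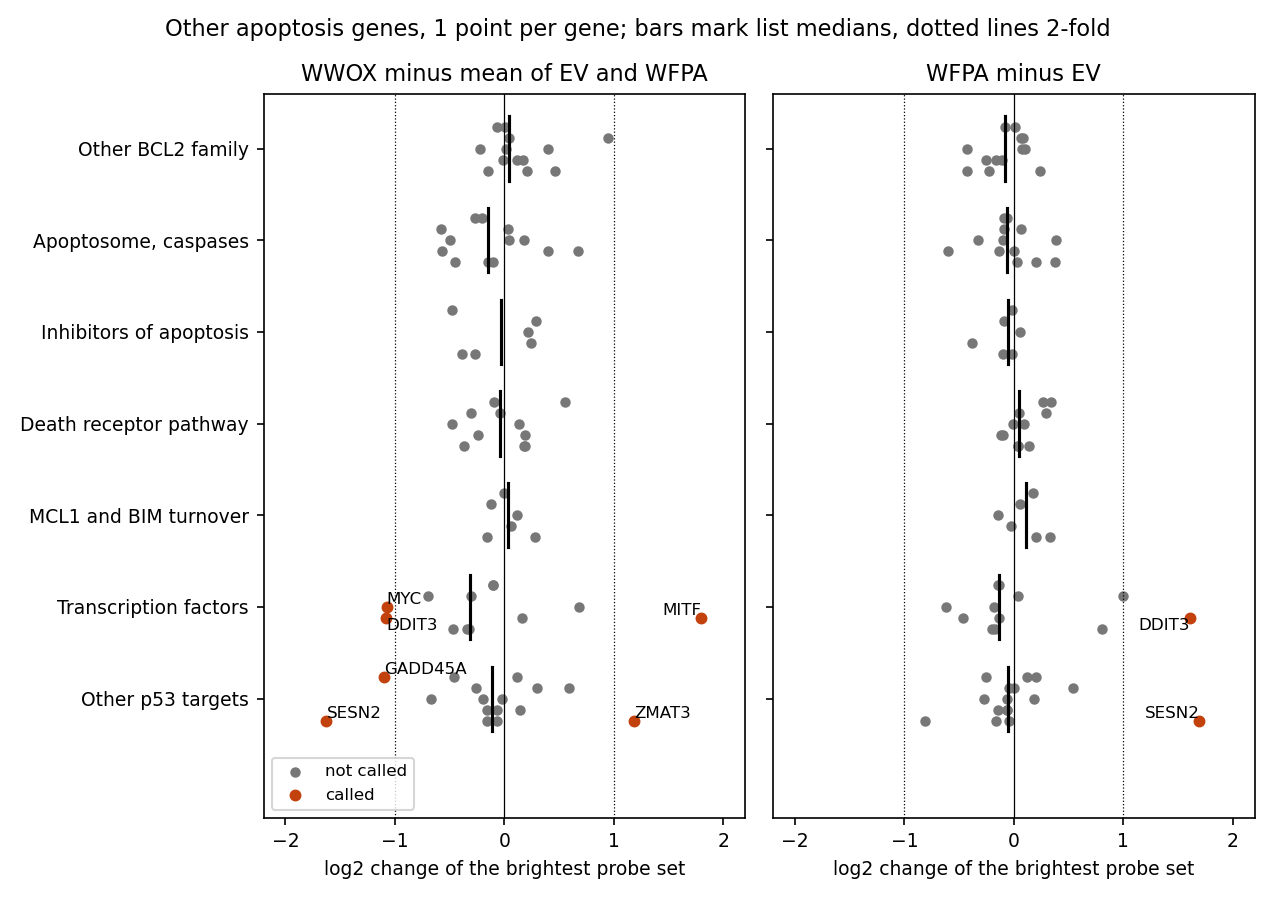
Each point is the log2 change of 1 gene's brightest probe set, in WWOX minus the mean of EV and WFPA (left) and WFPA minus EV (right), by gene list; red and named points were called, as defined above, and bars are list medians. Called genes lie only in the lists of transcription factors and p53 targets, from SESN2 at -1.63 to MITF at 1.80 on the left.

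Markers of cell identity also differed between the groups, and some of them between EV and WFPA too. Of 7 melanocytic markers 3 were called higher in WWOX cells (MITF, SOX10 and S100B), and the summed linear level of the list, in which probe sets of high signal weigh most, was 2832 to 4010 in the controls and 16688 to 19275 in WWOX. SOX10 had means of 4.89, 5.33 and 10.55 in EV, WFPA and WWOX (a change of 5.43), and S100B 5.55, 6.31 and 12.23 (6.30). PMEL, TYR, TYRP1 and MLANA, the markers of pigment cells, gave group means of 2.21 to 5.91 and were not called, beside array medians over all probe sets of 6.03 to 6.05. No background level is given for a probe set, so whether these genes are absent from the labelled melanoma line cannot be read from these values. Of 8 epithelial markers 1 was called higher (ESRP1) and 4 lower. Their sums were 10216 to 12477 in the controls and 4507 to 4906 in WWOX, and weigh mostly KRT18 (means of 13.39, 13.14 and 11.74 in EV, WFPA and WWOX). ESRP1 rose by 4.86, and EPCAM, KRT19 and CLDN4 did not pass. Of 8 fibroblast markers 3 were called higher (LUM, FAP and COL1A2). Their sums were 380 to 435 in EV, 495 to 523 in WFPA and 692 to 718 in WWOX. Of 6 haematopoietic markers 1 was called lower (PTPRC), with sums of 1052 to 1248, 393 to 442 and 241 to 281 in that order. No other marker of that list passed. In WFPA against EV COL1A2 was called higher (1.52, adjusted p = 9.96e-05) and PTPRC lower (-2.21, adjusted p = 0.000998). Of the 4 epithelial markers called lower, CDH1 (means of 4.67, 7.78 and 4.54 in EV, WFPA and WWOX) and GATA3 (7.10, 8.69 and 6.76) were called higher in WFPA than in EV and were not called in WWOX against EV, where KRT8 and KRT18 were. None of 8 proliferation genes was called. The part of these markers in the changes of PMAIP1, BCL2 and MCL1 was not tested.

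Of the members, PMAIP1 204285_s_at had the widest range of group means. Among 1237 genes with a spread over the 9 arrays of at least 0.5 times its own, the profiles closest to it were those of CCDC15 (Pearson r = 0.991), PPP1R26-AS1 (r = 0.986) and SMAGP (r = 0.981). These share the low values of WWOX replicate 3, at 7.35, 6.75 and 7.07, beside 8.33, 7.58 and 8.29 in WWOX replicate 1. The 9 points fall into groups, so r describes these arrays only.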

How the data were processed

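Total RNA of 9 samples of MDA-MB435S clones was read on Affymetrix U133 Plus 2.0 arrays, 3 each for EV, WFPA and WWOX. The authors normalized the arrays in Partek Genomics Suite 6.5 and deposited log2 intensities, and the background correction and normalization method is not given in the sources used here. The values of all 9 arrays were used as deposited. The 62 array controls were left out of 54675 probe sets. Of the 54613 tested, 41091 carry 1 gene in the platform annotation, 1801 several and 11721 none.

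Group means were modelled with limma 3.58.1 in R 4.3.3, on 6 residual and 3.04 prior degrees of freedom, and p-values of the contrasts were adjusted by Benjamini-Hochberg over all probe sets. The methods name Bonferroni and a 4-fold limit, which were tried separately as alternatives. Other variance models, filters on low values, scalings, a replicate block, and each array left out in turn were tried as well. On simulated arrays 92% of 100 probe sets changed by 1.5 on the log2 scale and 100% of 100 changed by 2 were recovered, with 2 unchanged ones called. No smaller change was simulated, so these shares do not cover the members with smaller changes, which are most of them.

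Named were all member probe sets, up to 4 called genes of each other list with the largest change, and the 3 genes most like the member of widest range. A gene stands by its probe set of highest mean. The members and lists were chosen with earlier results of these data known. Arrays correlated at 0.988 to 0.996 within groups and 0.975 to 0.989 between them, and none were identical. Replicate numbers did not pair the arrays, as deviations of same-numbered arrays from their group means correlated at -0.05 to 0.03. Of 29 member probe sets 6 repeat a value exactly in 2 or more arrays (20.7%, and 40.6% of all). The number of arrays limits the precision. Tables and plots were made in Python 3.11.15 (pandas 2.3.3, numpy 2.4.6; matplotlib 3.10.9 for plots). Promoters came from RefSeq windows.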

Additional observations from a re-analysis of the deposited data

Results flagged for a closer look

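Probe sets that carry a member's name together with other genes were left out above, and 2 of them passed in limma. Probe set 211692_s_at, annotated to BBC3 and the microRNA genes MIR3190 and MIR3191, read 7.12, 6.95 and 7.07 in EV, 7.44, 7.45 and 7.46 in WFPA, and 7.11, 7.34 and 7.39 in WWOX. The WFPA arrays lay above EV without overlap, by 0.40 ± 0.10 (SE, n = 3; limma adjusted p = 0.044), and WWOX lay between. BBC3 encodes PUMA, a BH3-only protein, and this is the nearest to a reading of it here. Probe set 201544_x_at, annotated to BCL2L2, PABPN1 and their read-through BCL2L2-PABPN1, was lower in WWOX cells by -0.48 against both controls, -0.47 against EV and -0.49 against WFPA (adjusted p = 0.0135, 0.0351 and 0.0231), the opposite sign to BCL2L2 209311_at. Which of its genes the probes read was not tested.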

How the results depend on the processing

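Called member probe sets numbered 3 in WWOX against the mean of both controls, 2 against EV, 3 against WFPA and 0 in WFPA against EV. With Bonferroni adjustment they were 1, 0, 1 and 0, at 4-fold 1, 0, 1 and 0, and with no fold limit 12, 7, 14 and 4. Bonferroni adjustment left PMAIP1 204286_s_at and the 4-fold limit PMAIP1 204285_s_at, so no member met both. Leaving out 1 array at a time gave 2 to 3, 2, 2 to 3 and 0 to 1, the last being BCL2L11 1555372_at without EV replicate 1. With the replicate block the counts were 3, 2, 3 and 0, and not every array's deviations correlated best with those of its own number. They were 2 or 3, 2, 2 or 3 and 0 under limma-trend, a robust prior, the plain 1-way model, filters at the lower quartile (27 members kept) and at the median (25 kept), median centring, quantile normalization, the groups compared alone, and EV and WFPA as 1 group. No change of a member probe set that passed turned its direction in any of these. Of 37 passes and calls of member probe sets, Bonferroni adjustment, which the methods name, left 2, both of PMAIP1 204286_s_at (against both controls and against WFPA), and every pass of MCL1, BCL2, BCL2A1, BCL2L1, BCL2L2 and BCL2L11 was lost under it. The replicate block lost 10, the plain model 14 and leaving out an array 102 of 333. The BCL2 gene was called with its probe set of largest variance (1.43) and not with its brightest (0.21), and the BCL2L11 gene gave -0.48 in WFPA against EV by its brightest probe set and 0.68 by that of largest variance. The cause of these losses was not tested.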
